A study of Mus musculus with 27 samples.

Results

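The 10 genes described here are *Hamp*, *Hamp2*, *Bmp6*, *Id1*, *Id3*, *Smad6*, *Smad7*, *Tfrc*, *Trf* and *Scara5*, which were chosen by symbol because they belong to hepcidin production, bone morphogenetic protein (BMP) signaling and iron uptake. They are 10 of the 17655 genes listed in the deposited tables, and each was listed in all 4 tables. Whole-liver RNA of 27 mice was sequenced, 1 mouse per library and 3 mice in each of 9 groups. Every mouse carried the homozygous floxed allele (Kdm5b fl/fl) of *Kdm5b*, a histone demethylase gene, and every mouse received an adeno-associated virus (AAV) and the Western diet with alcohol (WDA). WT mice received the control vector, KO mice AAV-CMV-Cre, whose promoter is broadly active, and HepKO mice AAV8-TBG-Cre, whose promoter is active in hepatocytes. The WDA groups were WT, KO and HepKO females and WT and KO males, labelled with 8 weeks of WDA, which is shorter than the feeding time in the study's methods. The resolution (Res) groups were WT and KO mice of each sex, labelled with 16 weeks of WDA followed by the vector and 4 weeks of resolution, on chow and plain water by the study's methods. The labels gave no ages. All WDA libraries belonged to one experiment number and all Res libraries to another, so that stage, the change to chow, feeding time, time of vector delivery and experiment cannot be told apart. The sexes were deposited in separate tables, so that sex and table cannot be told apart either.

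Hepcidin, the peptide hormone encoded by *Hamp*, is released by hepatocytes and lowers plasma iron by removing the iron exporter ferroportin from the cell surface. Sinusoidal endothelial cells of the liver secrete BMP6, which activates receptors and SMAD proteins in hepatocytes, and these raise transcription of hepcidin together with *Id1*, *Id3* and the feedback inhibitors *Smad6* and *Smad7*. Inflammatory cytokines raise hepcidin separately, through STAT3. Iron itself travels in plasma on transferrin (*Trf*) and enters cells through the transferrin receptor (*Tfrc*) or, as ferritin, through the scavenger receptor encoded by *Scara5*.

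Library totals ranged from 14634602 to 19388251 counts (median 17944536). Values are CPM, counts per gene relative to the library total, after scaling with trimmed means (TMM), means are given ± SD, and fold changes are on the log2 scale with their standard error (SE). The hepatocyte markers, 8 genes led by *Alb*, summed to between 80136.8 and 180364.6 CPM, so that the libraries had the composition of liver. *Kdm5b* overlapped between WT and KO in WDA females (21.4 to 31.2 against 14.5 to 24.1 CPM) and was lower in every KO than in every WT mouse of the other 3 pairs of groups. WDA males differed little (23.5 to 24.9 CPM in WT against 20.6 to 22.0 CPM in KO). The ranges were 16.6 to 17.4 against 10.7 to 13.2 CPM in Res females and 18.8 to 19.6 against 7.93 to 17.2 CPM in Res males. HepKO females had 8.30 to 17.4 CPM. Summed cholangiocyte markers had a median of 28.4 CPM over all libraries and exceeded 5 times that level in 5 of them, with 571.7 CPM in WDA KO male mouse 17, 499.7 CPM in WDA WT female mouse 7, 251.2 CPM in Res WT female mouse 13, 209.0 CPM in Res KO male mouse 5 and 167.7 CPM in Res WT male mouse 9. *Id1* and *Smad7* each had the highest value of their group in all 5 of these livers. The library labelled Res KO male mouse 5 held 8 female-biased liver transcripts at a median of 29.9% of the level in Res females, beside 4 Y-linked transcripts at 63.0% to 86.5% of the level in the other Res males. Of the 8, 7 were above all other Res males, while *Cux2* (6.02 CPM) lay below the highest of these males (7.73 CPM). Whether this library also holds RNA of a female was not tested. In whole liver, fewer cells of a type and less RNA per cell cannot be told apart.

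By values scaled to length, the 10 genes covered more than 3 orders of magnitude. The lengths behind these values are not given in the sources used here. For *Hamp* the values imply a length shorter than its transcript of 410 bases, so that its level relative to longer genes is uncertain. By the deposited FPKM values (fragments per kilobase, scaled to library size), averaged over the 9 groups, *Trf* was highest at 4850.1 and *Hamp* followed at 4210.7. *Hamp* spread over a range from 608.0 to 10810.3 FPKM between livers and *Trf* only from 3605.0 to 6354.9, so that the order of these neighbours differed between libraries. *Hamp2* had a mean of 337.9 FPKM, and its libraries ran from 4.63 to 1064.2. *Id3* (64.3 FPKM) and *Id1* (16.9 FPKM), inhibitors of DNA binding that serve as readouts of BMP signaling, were next, followed by *Tfrc* (7.51 FPKM). *Smad6* (2.80), *Smad7* (2.54) and *Bmp6* (2.29 FPKM) lay within the spread of one another over libraries. *Scara5* was lowest at 0.892 FPKM and was listed at 0 in some libraries.

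**Figure D1:**
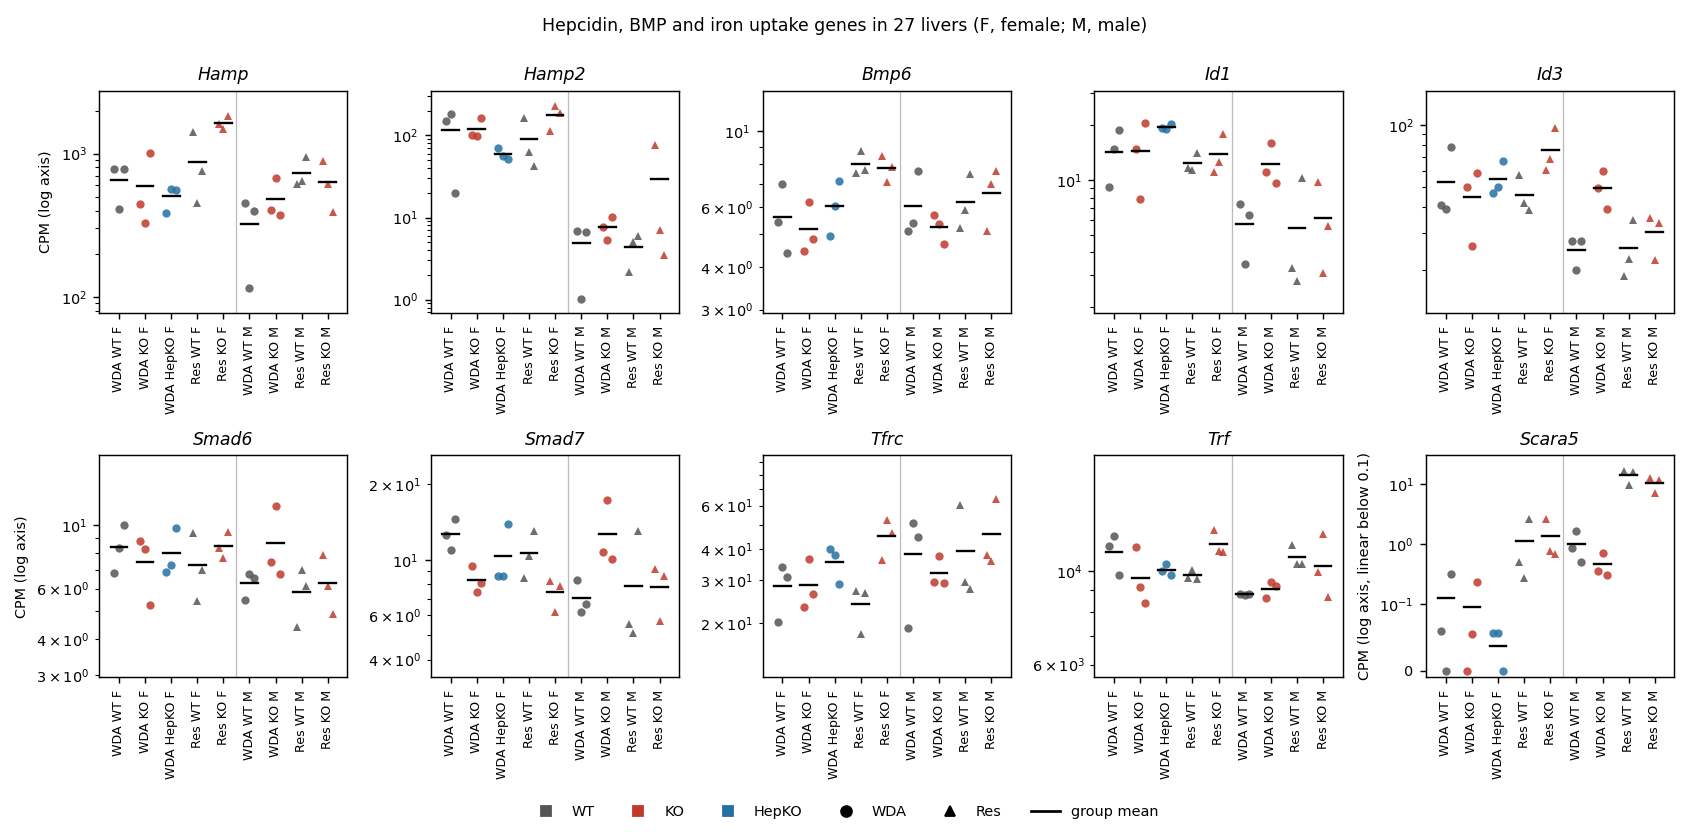
CPM of the 10 genes in each mouse (points, 3 per group; circles WDA, triangles Res; black bars, group means; log axis, linear below 0.1 for *Scara5*), with females left and males right of the grey line. *Hamp2* lay between 20 and 231.0 CPM in females and at or below 10.1 CPM in males other than Res KO mouse 5 (77.6 CPM), and *Scara5* reached 1.63 CPM at most on WDA and 16.4 CPM in Res.

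*Hamp* and *Hamp2* are neighbours on chromosome 7 (*Hamp*, gene 84506, chr7:30942368-30944029, and *Hamp2*, gene 66438, chr7:30922372-30924181, in GRCm38.p6, both on the minus strand). The role of *Hamp2*, a mouse paralog of hepcidin, in iron handling is less clear. Their promoters are shown because the sexes differed in *Hamp2*, while the difference of *Hamp* did not pass. The 250 bases before each annotated start (RefSeq, GRCm38.p6) were chr7:30944030-30944279 for *Hamp* and chr7:30924182-30924431 for *Hamp2*. Capitals mark matches to GGCGCC, the core of the BMP-responsive element, and to TTCNNNGAA, the motif of STAT3.
Hamp: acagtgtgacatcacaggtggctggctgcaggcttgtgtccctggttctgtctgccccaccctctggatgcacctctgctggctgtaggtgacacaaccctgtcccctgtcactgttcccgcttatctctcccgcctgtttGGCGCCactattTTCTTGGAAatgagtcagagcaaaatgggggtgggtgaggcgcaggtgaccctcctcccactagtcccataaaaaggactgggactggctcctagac
Hamp2: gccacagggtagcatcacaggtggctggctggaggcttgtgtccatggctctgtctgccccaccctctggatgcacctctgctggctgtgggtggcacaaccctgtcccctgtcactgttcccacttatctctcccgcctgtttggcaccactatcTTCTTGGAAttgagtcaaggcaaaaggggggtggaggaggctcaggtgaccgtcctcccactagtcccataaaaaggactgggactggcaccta

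The windows were identical in 227 of 253 aligned columns (89.7%). GGCGCC began 109 bases before the *Hamp* start, and the aligned bases of *Hamp2* carried the substitution G4A, counted from 1 at the 5′ end of the motif with the base of *Hamp* first. TTCNNNGAA matched in both windows and did not overlap GGCGCC. Both motifs read the same on either strand. Among 27025 promoter windows of 250 bases, 9.54% held GGCGCC and 7.18% held TTCNNNGAA. Promoter entries were matched for 6 of the 10 genes. *Id3*, *Smad6* and *Bmp6* held neither motif, and 1 of the *Tfrc* windows held GGCGCC. A match describes the letters only.

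The counts of *Hamp* and *Hamp2* were not whole in 15 of 27 libraries, while their sum was whole within 0.06 in all 15 and the other 8 genes had whole counts throughout. Some reads were thus divided between the paralogs, and each value is uncertain by that part. Of the windows of 50 bases in the *Hamp* transcript, 16.6% were also in *Hamp2*, and of the windows of 100 bases none of 311 were.

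Resolution was first compared with WDA in each sex and vector group. Alcohol withdrawal, the change to chow, feeding time, time of vector delivery and experiment all enter this comparison together. *Hamp* was higher in Res mice on average over the 4 pairs of groups, with *Bmp6* and *Scara5*. Of the 10 genes, 3 were called in this average by edgeR's quasi-likelihood test (Benjamini-Hochberg adjusted p under 0.05 over all genes tested), all higher, against 29.8% of all 13519 genes tested (14.1% higher). The share of the 10 genes called was thus near that of all genes. The median log2 difference of the 10 was 0.19, against 0.00 over all genes.

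In WT females, *Hamp* was at 783.4, 411.6 and 781.2 CPM on WDA and at 1407.1, 452.6 and 757.5 CPM in Res. These groups overlapped, and the log2 fold change of 0.40 (SE 0.45, edgeR adjusted p = 0.751) was smaller than its error. In KO females, *Hamp* was at 441.2, 329.1 and 1008.5 CPM on WDA and at 1619.9, 1488.2 and 1820.5 CPM in Res. All 3 Res KO females were above all 3 WDA KO females, by 1.47 (SE 0.34, edgeR adjusted p = 0.0168), where the groups did not overlap for 40.4% of all genes. The call was lost only without Res KO female mouse 4 (1.39, edgeR adjusted p = 0.0599). WT males had 451.5, 115.4 and 396.7 CPM of *Hamp* on WDA and 610.9, 639.9 and 947.8 CPM in Res. These groups did not overlap, as was found for 36.0% of all genes. The difference of 1.21 (SE 0.44, edgeR adjusted p = 0.110) did not pass, and it fell to 0.81 without WDA WT male mouse 20. KO males had 405.3, 677.5 and 371.0 CPM on WDA and 885.4, 616.0 and 389.3 CPM in Res, with overlap and a difference of 0.40 (SE 0.37, edgeR adjusted p = 0.842).

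Averaged over the 4 pairs, *Hamp* was 0.86 higher in Res (SE 0.24, edgeR adjusted p = 0.0121; 969.6 ± 488.6 against 514.4 ± 247.5 CPM, n = 12 each). The call held in all 24 fits that left out 1 mouse, between 0.73 and 1.02. Of the hepatocyte markers, 1 of 8 (*Alb*) was higher in the same average and 3 of 8 in KO females, where their summed level was 97249.8 to 117194.0 CPM on WDA and 152423.6 to 180364.6 CPM in Res. Of the lymphocyte markers, 6 of 7 tested were higher in the average. The part of these cells in the *Hamp* result was not tested. *Hamp2* did not pass in the average (0.49, SE 0.44, edgeR adjusted p = 0.436). Its single differences were -0.40 in WT females, 0.55 in KO females and -0.12 in WT males. In KO males it was 1.95 (SE 1.03), where Res mouse 5 had 77.6 CPM and its group mates 7.02 and 3.54 CPM. Without that mouse the *Hamp2* difference was -0.53 in KO males and -0.13 in the average.

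*Bmp6* (gene 12161, chr13:38345716-38500314), the ligand, moved in the same direction by less. KO females had 4.46, 6.20 and 4.84 CPM on WDA and 8.45, 7.13 and 7.87 CPM in Res, and WT females had 5.41, 7.02 and 4.40 CPM on WDA and 7.55, 8.75 and 7.73 CPM in Res. In both, every Res female was above every WDA female, where the groups did not overlap for 40.4% of all genes in KO and 20.4% in WT females. The difference was 0.59 in KO females (SE 0.18, edgeR adjusted p = 0.0431) and 0.52 in WT females (SE 0.23, edgeR adjusted p = 0.383). The call in KO females held in 1 of the 6 fits that left out 1 mouse, the one without WDA KO female mouse 2. Males differed less, by 0.06 (SE 0.22) in WT and 0.35 (SE 0.23) in KO, and their groups overlapped. Averaged over the 4 pairs, *Bmp6* was 0.37 higher in Res (SE 0.10, edgeR adjusted p = 0.0108; 7.16 ± 1.17 against 5.51 ± 1.0 CPM), and the difference of the stage effect between the sexes did not pass (0.37, SE 0.21, edgeR adjusted p = 0.802). Among the sinusoidal endothelial markers, the cells that make BMP6, 3 of 10 were higher and 1 lower in the same average, and their summed level was 314.9 to 563.0 CPM in WDA females and 359.8 to 558.6 CPM in Res females. Their part in the *Bmp6* result was not tested.

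*Id1* (gene 15901, chr2:152736251-152737410), *Id3* (gene 15903, chr4:136143822-136145392), *Smad6* (gene 17130, chr9:63953076-64022085) and *Smad7* (gene 17131) had averages of -0.33 (SE 0.23), -0.03 (SE 0.16), -0.14 (SE 0.13) and -0.24 (SE 0.15), none of which passed. Of the other genes that BMP signaling raises, *Hamp* passed in this average, as given above, and *Id2* was lower (-0.48, SE 0.11). Without the 5 livers with high cholangiocyte markers, *Id1* (-0.57, edgeR adjusted p = 0.0253) and *Smad7* (-0.36, edgeR adjusted p = 0.0106) were lower in Res, and *Smad7* also passed without Res WT male mouse 9 alone (-0.38, edgeR adjusted p = 0.0203). Both genes had the highest value of their group in all 5 of these livers, which were unevenly split between the stages. The livers were left out after the data were seen, so that these fits cannot decide whether *Id1* and *Smad7* differed by stage. *Hamp* (0.86), *Bmp6* (0.34) and *Scara5* (3.91) were called without these 5 livers as well. In KO females, *Id3* was at 50.1, 26.0 and 58.6 CPM on WDA and at 60.6, 68.6 and 96.7 CPM in Res. These groups did not overlap (40.4% of all genes had no overlap), and the difference of 0.75 (SE 0.27, edgeR adjusted p = 0.0764) passed by DESeq2 (adjusted p = 0.0218). In KO males the order was the other way, with *Id3* at 49.7, 60.1 and 39.3 CPM on WDA and at 35.5, 22.2 and 33.5 CPM in Res. The groups again did not overlap (12.9% of all genes had no overlap), and the difference was -0.69 (SE 0.23, edgeR adjusted p = 0.682). In the same males *Id1* differed by -0.97 (SE 0.40, unadjusted p = 0.0435, edgeR adjusted p = 0.752) and *Smad7* by -0.69 (SE 0.28, unadjusted p = 0.0404, edgeR adjusted p = 0.751). Without WDA KO male mouse 17 the difference of *Smad7* was -0.40. The difference of the stage effect on *Id3* between the sexes was 0.61 (SE 0.32, edgeR adjusted p = 0.747), and it did not pass without the 5 livers either (edgeR adjusted p = 0.115).

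*Scara5* (gene 71145, chr14:65666403-65764826) had the largest differences of the 10 genes. WDA WT males had 0.851, 1.63 and 0.501 CPM and Res WT males 16.4, 9.54 and 15.8 CPM, a rise of 3.81 (SE 0.38, edgeR adjusted p = 0.00336). WDA KO males had 0.352, 0.720 and 0.304 CPM and Res KO males 12.5, 6.96 and 11.6 CPM. This difference, 4.45 (SE 0.41), was as large, with an edgeR adjusted p = 0.0574 and a DESeq2 adjusted p = 9.25e-17. No gene passed edgeR's test in KO males (0 of 12747, with 819 or 6.43% at an unadjusted p under 0.05 and 79 or 0.620% called by DESeq2), and *Scara5* passed without WDA KO male mouse 17 (4.96, edgeR adjusted p = 0.0110). The Res males held between 115 and 298 counts each and the WDA males between 5 and 27.

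Female livers held few *Scara5* reads. KO females had 0, 1 and 4 counts on WDA and 44, 13 and 12 counts in Res, with a fitted difference of 3.71 (SE 0.86, edgeR adjusted p = 0.0169), which was lost without WDA KO female mouse 2 (3.43, edgeR adjusted p = 0.0512). WT females had 1, 0 and 7 counts on WDA and 9, 5 and 56 in Res, and the gene was below the filter of that comparison. The 9 WDA females, HepKO included, held between 0 and 7 counts each, so that folds against them rest on few reads. Averaged over the 4 pairs, *Scara5* was 3.74 higher in Res (SE 0.43, edgeR adjusted p = 6.92e-06). Of 12 stellate cell and fibroblast markers, cells in which *Scara5* is known to be expressed, 1 (*Hand2*) was higher in the same average, and their summed level was 329.4 to 934.5 CPM in WDA males and 346.3 to 610.4 CPM in Res males. Their part in the *Scara5* result was not tested.

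The transferrin genes differed less by stage. *Tfrc* (gene 22042, chr16:32608896-32632794) was at 23.3, 36.3 and 26.3 CPM in WDA KO females and at 36.1, 52.6 and 46.5 CPM in Res KO females. The groups overlapped by 1 mouse, and *Tfrc* was higher in Res by 0.65 (SE 0.19, edgeR adjusted p = 0.0376), a call that held in 2 of the 6 fits that left out 1 mouse. It was lost without WDA mice 1 or 3 and without Res mice 3 or 4. Of the erythroid markers, cells rich in this receptor, 2 of 5 were higher in Res KO females, with a summed level of 426.7 to 703.1 CPM against 333.6 to 438.1 CPM on WDA, and their part in the *Tfrc* result was not tested. In WT females *Tfrc* ran from 20.3 to 33.9 CPM on WDA and from 18.1 to 27.1 CPM in Res (-0.24, SE 0.24). KO males differed by 0.53 (SE 0.25, unadjusted p = 0.0651, edgeR adjusted p = 0.773) and WT males by 0.05 (SE 0.39), with overlap in both. *Trf* (gene 22041, chr9:103208876-103230286) varied least of the genes, between 8398.0 and 12515.3 CPM over all 27 livers. WT males had 8809.5, 8768.2 and 8831.2 CPM on WDA and 11506.8, 10399.7 and 10378.7 CPM in Res. These did not overlap (36.0% of all genes had no overlap), and the difference of 0.31 (SE 0.12) passed by DESeq2 (adjusted p = 0.00947) and missed by edgeR (adjusted p = 0.118).

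**Figure D2:**
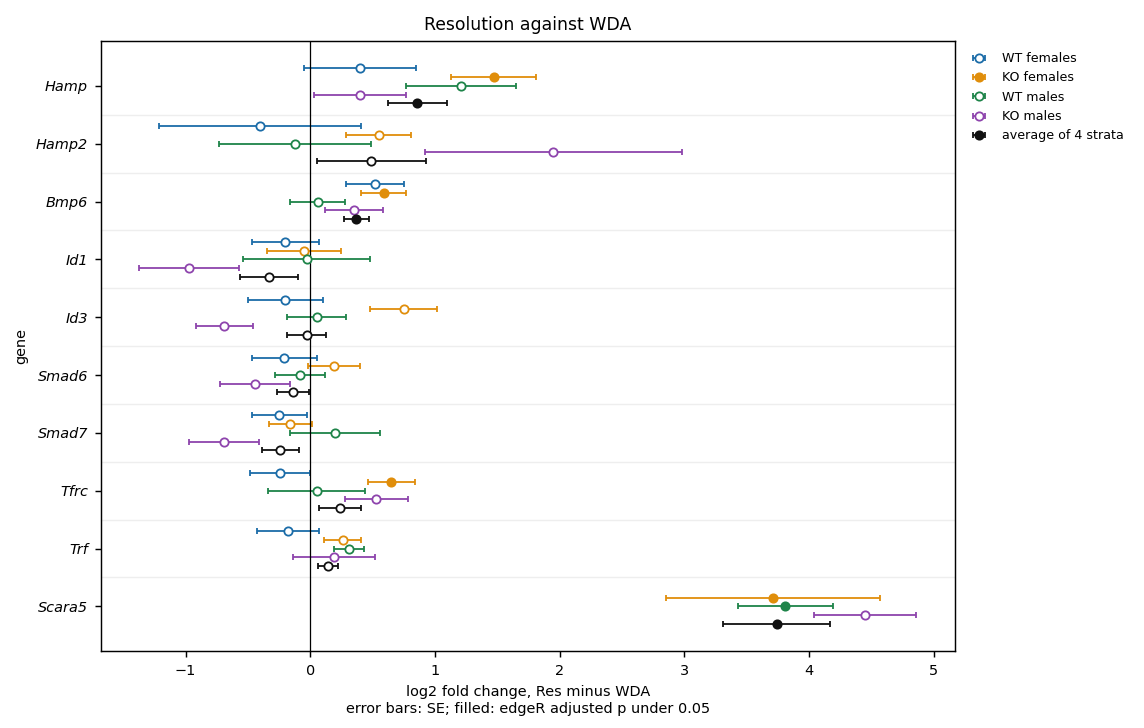
Log2 fold change, Res minus WDA, of the 10 genes in each sex and vector group and averaged over the 4 pairs (points; bars, SE; filled, edgeR adjusted p under 0.05). *Scara5* lay between 3.71 and 4.45 in the 3 pairs with a test, *Hamp* between 0.40 and 1.47, and *Id1*, *Id3*, *Smad6* and *Smad7* did not pass in any pair or in the average.

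By pair of groups, the number of the 10 genes called by edgeR was 4 in KO females (20.4% of all genes were called), 1 in WT males (11.0%), 0 of 9 tested in WT females (0%) and 0 in KO males (0%). In WT females 0 of the 9 had an unadjusted p under 0.05, against 13.6% of all genes, and DESeq2 called 0 of them, against 3.21%. In KO males 4 of the 10 had an unadjusted p under 0.05, against 6.43% of all genes, and DESeq2 called 1, against 0.620%. For each count the share of all genes is that of the same comparison.

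Other genes of iron handling were read from lists chosen by function, with earlier results of these data known. Of 17 tested regulators of hepcidin, 6 rose and 1 fell in the average of Res against WDA, where 29.8% of all genes were called and 14.1% were called higher. The BMP receptor subunits *Acvr2a* (0.33, SE 0.08) and *Acvr2b* (0.40, SE 0.13) and the signal transducers *Smad1* (0.25, SE 0.09), *Smad4* (0.37, SE 0.06) and *Smad9* (0.61, SE 0.19) rose, as did *Neo1* (0.25, SE 0.06), a co-receptor. *Nfe2l2*, which encodes an oxidative stress factor that raises *Bmp6*, fell by 0.68 on the log2 scale (SE 0.15, edgeR adjusted p = 0.00244). *Tmprss6*, the protease that lowers hepcidin (-0.31, SE 0.12, edgeR adjusted p = 0.0598), *Hjv*, the BMP co-receptor (-0.20, SE 0.09), and *Tfr2*, the iron-sensing receptor (0.08, SE 0.11), did not pass. Of 26 genes of iron transport and storage, 7 rose and 4 fell. *Slc40a1*, ferroportin, rose from 120.4 to 159.5 CPM (0.40, SE 0.10, edgeR adjusted p = 0.00661), and *Fth1*, the ferritin heavy chain, fell by 0.34 on the log2 scale (SE 0.08, edgeR adjusted p = 0.00309). The light chain *Ftl1* (-0.21, SE 0.10, edgeR adjusted p = 0.112) did not pass.

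Among 17 inflammatory genes, 8 rose and 1 fell in the same average, beside the same 29.8% of all genes. *Saa2* (1.99, SE 0.29), *Saa1* (1.69, SE 0.28) and *Saa3* (1.32, SE 0.23), acute phase proteins, and *Lcn2* (1.18, SE 0.40), which binds bacterial iron carriers, were the largest, and *Il1b* fell by 0.80 on the log2 scale (SE 0.27). *Lcn2* was counted in this list and in that of iron transport and storage. The change of *Saa2* differed between the sexes (-3.14 in females minus males, SE 0.57, edgeR adjusted p = 0.0327). Of 14 other BMP ligands, antagonists and targets, 2 rose and 1 fell, namely *Bmper* (1.53, SE 0.50), *Bmp2* (0.34, SE 0.12) and *Id2* (-0.48, SE 0.11). Of 8 genes of iron sensing, *Egln3*, an oxygen-sensing hydroxylase, fell by 1.04 on the log2 scale (SE 0.11) and *Egln1* rose by 0.23 (SE 0.05). The medians of these 5 lists lay between -0.05 and 0.11, against 0.00 over all genes.

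KO and WT mice were compared within each stage and sex to ask what the vector changed. None of the 10 genes passed edgeR's test in any of the 4 comparisons or in their average, where 2 had an unadjusted p under 0.05 and DESeq2 called none. One of these was *Hamp2* (1.10, unadjusted p = 0.0230), which was 0.48 without Res KO male mouse 5 (unadjusted p = 0.188). The other was *Id3* (0.43, edgeR adjusted p = 0.326). It stayed between 0.37 and 0.53 in the 24 fits that left out 1 mouse and passed in 0 of them. In the average 0.0148% of all 13519 genes were called, 9.83% had an unadjusted p under 0.05 and DESeq2 called 0.880%. In the single comparisons edgeR called 0% of all genes. An unadjusted p under 0.05 was found for 1 of 9 tested genes in WDA females (3.11% of all genes), 3 of 10 in WDA males (7.71%), 4 of 10 in Res females (19.2%) and 1 of 10 in Res males (1.45%). DESeq2 called 0, 1, 1 and 0 of them, against 0.0645%, 0.137%, 5.06% and 0.0555% of all genes. *Hamp* differed by -0.18 (SE 0.45) in WDA females, 0.61 (SE 0.50) in WDA males, 0.88 (SE 0.35) in Res females and -0.20 (SE 0.31) in Res males, and by 0.28 (SE 0.24, edgeR adjusted p = 0.814) in the average. In Res of both sexes, with sex in the model, edgeR and DESeq2 called 0 of the 10 (0% and 0.0455% of all genes). There 3 of the 10 had an unadjusted p under 0.05, against 7.85% of all genes. They were *Hamp2* (1.78, or 0.70 without Res KO male mouse 5), *Id3* (0.48) and *Tfrc* (0.56), each with an edgeR adjusted p = 0.630.

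In the values given above, all 3 Res KO females had more *Hamp* than all 3 Res WT females, and *Tfrc* was at 36.1, 52.6 and 46.5 CPM in KO and 27.1, 18.1 and 26.6 CPM in WT. The *Tfrc* difference was 0.87 (SE 0.19, edgeR adjusted p = 0.108, DESeq2 adjusted p = 0.00442). Summed erythroid markers, of cells rich in this receptor, were 426.7 to 703.1 CPM in the same KO females and 288.8 to 394.4 CPM in WT. Neither did the groups overlap in the sums of sinusoidal endothelial markers (494.6 to 558.6 CPM in KO against 359.8 to 482.0 CPM in WT), proliferation markers (33.1 to 36.5 against 26.3 to 29.9 CPM) and cholangiocyte markers (20.4 to 29.5 against 32.8 to 251.2 CPM). The part of these cells in the differences between Res KO and WT females was not tested. The *Hamp* difference had an edgeR adjusted p = 0.239, and *Id3* differed by 0.67 (SE 0.21, edgeR adjusted p = 0.156). *Smad7* was at 8.21, 6.21 and 7.87 CPM in KO against 8.50, 10.4 and 13 CPM in WT (-0.57, SE 0.21, edgeR adjusted p = 0.204), and the difference was -0.38 without Res WT female mouse 13. *Trf* was the fifth gene without overlap (0.20, SE 0.16). The groups thus did not overlap for 5 of the 10 genes, against 26.2% of all 12577 genes tested. Without Res WT female mouse 1, *Hamp* (1.39, edgeR adjusted p = 0.0305) and *Hamp2* (1.72, edgeR adjusted p = 0.0351) passed. That mouse had the highest values of both genes among the Res WT females, and without it edgeR called 852 genes in all, against 0 with it.

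In WDA males, *Id1* was at 11.1, 16.0 and 9.66 CPM in KO and at 7.36, 3.45 and 6.39 CPM in WT (1.11, SE 0.32), and *Id3* was at 49.7, 60.1 and 39.3 CPM in KO and 27.4, 20 and 27.4 CPM in WT (1.01, SE 0.20). *Smad7* was at 10.7, 17.4 and 10.1 CPM in KO and 8.33, 6.17 and 6.64 CPM in WT (0.88, SE 0.25). In all 3 genes every KO male was above every WT male, against 16.3% of all 12419 genes whose groups did not overlap in either direction. Each had an edgeR adjusted p = 0.588, and DESeq2 called *Id3* (adjusted p = 0.0239). The highest value of each gene was in mouse 17, whose cholangiocyte markers stood apart. The sum of these markers was 25.7 to 571.7 CPM in KO and 23.0 to 77.2 CPM in WT males. Without it the *Smad7* difference was 0.57 and that of *Id3* 0.84.

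In WDA females *Smad7* was at 9.44, 7.46 and 8.05 CPM in KO and at 12.6, 10.9 and 14.6 CPM in WT, with no overlap (8.81% of all genes had none), and differed by -0.63 (SE 0.18, unadjusted p = 0.0101, edgeR adjusted p = 0.978), or by -0.50 without WT mouse 7. In Res males it differed by 0.00 (SE 0.37), and by 0.57 without WT mouse 9. The difference of the KO effect between the sexes, averaged over the stages, was -0.99 (SE 0.30, unadjusted p = 0.00336, edgeR adjusted p = 0.180, DESeq2 adjusted p = 0.0673) and did not pass, where edgeR called 0% of all genes, DESeq2 called 1.35% and 17.4% had an unadjusted p under 0.05. Without the 5 livers with high cholangiocyte markers it was -0.94 (edgeR adjusted p = 0.313). *Hamp2* differed by 2.75 between KO and WT Res males (SE 1.03, edgeR adjusted p = 1.0), and by 0.24 without Res KO mouse 5. No gene of the 10 passed the test of a difference in KO effect between the stages (0 at an unadjusted p under 0.05, against 3.20% of all genes, and 0 by DESeq2, against 0%), and the lowest p was that of *Tfrc* (0.69, SE 0.34, unadjusted p = 0.0550).

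**Figure D3:**
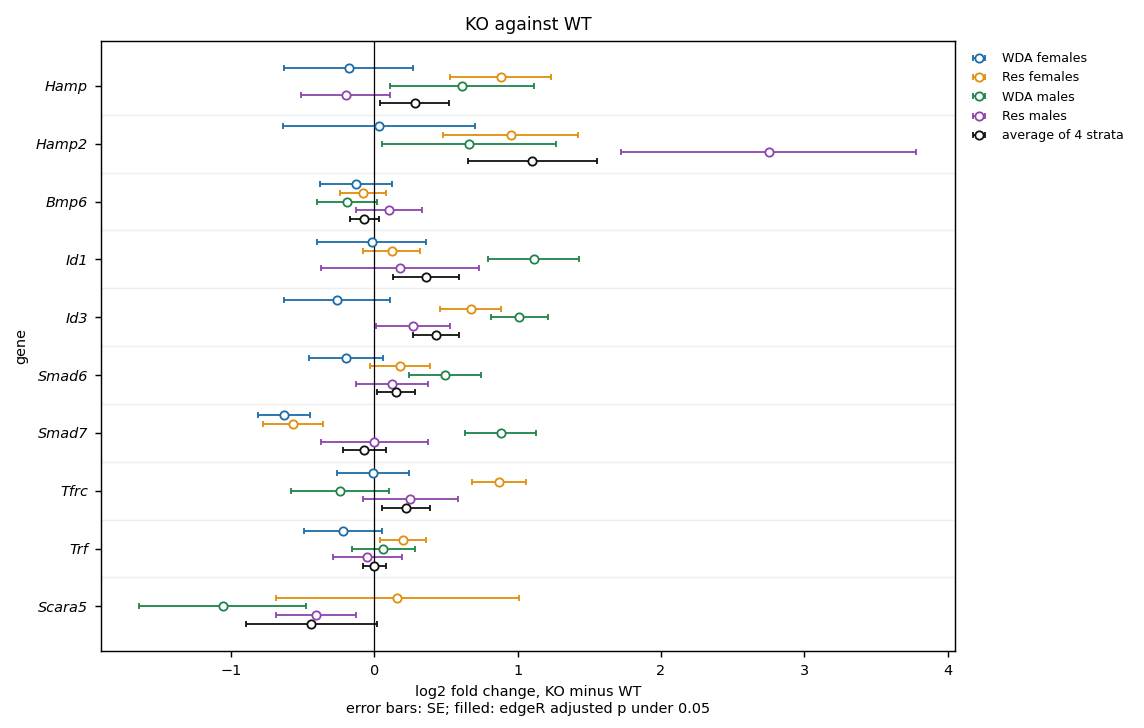
Log2 fold change, KO minus WT, of the 10 genes in each stage and sex and averaged over the 4 pairs (points; bars, SE; none filled, since none had an edgeR adjusted p under 0.05). *Smad7* lay at -0.63 and -0.57 in females and at 0.88 in WDA males, and the point of *Hamp2* in Res males (2.75) rests on 1 library.

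HepKO females, measured on WDA only, share their comparison groups with the KO females. *Hamp2* was at 69.9, 55.5 and 51.7 CPM in HepKO, at 102.5, 99.4 and 162.6 CPM in KO and at 151.7, 181.9 and 20 CPM in WT. All HepKO mice were below all KO mice (59.0 ± 9.64 against 121.5 ± 35.7 CPM), and the difference was -1.04 (SE 0.20, edgeR adjusted p = 0.324, DESeq2 adjusted p = 0.000193), where edgeR called 0.0162% of all genes and the groups did not overlap for 10.9%. Against WT the difference was -0.99 (SE 0.68, edgeR adjusted p = 0.646). Without WDA WT female mouse 7, which had the lowest *Hamp2* of the females and the high cholangiocyte markers, it was -1.50 (edgeR adjusted p = 0.00215). In that fit edgeR called 349 genes in all, against 0 with mouse 7. Summed erythroid markers were 597.8 to 938.6 CPM in HepKO, 333.6 to 438.1 CPM in KO and 195.5 to 393.8 CPM in WT, and their part in these differences was not tested. *Hamp* itself was at 381.7, 568.0 and 560.2 CPM in HepKO and overlapped both other groups (-0.40, SE 0.30, against WT; -0.24, SE 0.35, against KO). *Id1* was at 19.3, 19.1 and 20.2 CPM in HepKO, above the 9.21, 14.8 and 18.8 CPM of WT (0.44, SE 0.25, edgeR adjusted p = 0.588), where the groups did not overlap for 18.6% of all genes. Of the 9 genes tested, 0 were called against WT (0% of all genes), with 0 at an unadjusted p under 0.05 (10.1%) and 0 called by DESeq2 (1.85%).

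Females and males were compared over WT and KO mice. Averaged over both stages and vectors, 4 of the 10 genes were called, against 11.3% of all 13519 genes. *Hamp2*, *Id3* and *Id1* were higher in females and *Scara5* was higher in males. *Hamp2* had the largest difference. On WDA its lowest, median and highest values were 20, 127.1 and 181.9 CPM in 6 females and 1.03, 6.82 and 10.1 CPM in 6 males, and in Res they were 42.0, 139.8 and 231.0 CPM in females and 2.14, 5.51 and 77.6 CPM in males. The sexes did not overlap on WDA, and in Res only male mouse 5 reached the range of females. For the comparisons by sex, the share of all genes without overlap was not computed, so that a lack of overlap here and below only describes the values. The average difference was 3.88 (SE 0.48, edgeR adjusted p = 1.87e-05), and 4.50 without that mouse. In Res alone it was 3.39 (edgeR adjusted p = 0.0195), and 4.67 without that mouse (edgeR adjusted p = 5.16e-05). Of the summed counts of both paralogs, *Hamp2* took 2.49% to 30.6% in the 15 females, 0.349% to 2.66% in 11 males and 8.06% in mouse 5.

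*Hamp* ran from 329.1 to 1820.5 CPM with a median of 782.3 in 12 females and from 115.4 to 947.8 CPM with a median of 531.2 in 12 males. The sexes overlapped, and the difference of 0.74 (SE 0.24, edgeR adjusted p = 0.0563) passed by DESeq2 (adjusted p = 0.0162) and in 6 of the 24 fits that left out 1 mouse. It also passed without the 5 livers with high cholangiocyte markers (0.94, edgeR adjusted p = 0.0205). Of these 5, chosen after the data were seen, 3 had the highest *Hamp* of their group, all of them males. The *Hamp2* difference between the sexes was thus larger than that of *Hamp*, although no test compared these genes with each other.

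*Id3* had a lowest, median and highest value of 26.0, 53.8 and 96.7 CPM in females and 18.6, 30.5 and 60.1 CPM in males. It was 0.77 higher in females (SE 0.16, edgeR adjusted p = 0.00301), and in Res, where every female was above every male, the difference was 1.07 (SE 0.19, edgeR adjusted p = 0.00778). On WDA it was 0.46 (SE 0.30, edgeR adjusted p = 0.560). *Id1* ran from 7.85 to 20.5 CPM in females and from 2.79 to 16.0 CPM in males, a difference of 0.97 (SE 0.23, edgeR adjusted p = 0.00901). Every Res female was above every Res male (1.16, SE 0.32, edgeR adjusted p = 0.0730). *Smad6* (0.24, SE 0.13) and *Smad7* (0.14, SE 0.15), the inhibitors, and *Bmp6* (0.12, SE 0.10) did not pass. Without the 5 livers *Smad7* did (0.32, edgeR adjusted p = 0.0341). Each of these livers held the highest *Smad7* of its group, and they were chosen after the data were seen, so that this fit cannot decide a sex difference.

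*Scara5* had the opposite order. In Res it had a lowest, median and highest value of 0.270, 0.714 and 2.61 CPM in females and 6.96, 12.1 and 16.4 CPM in males, with no overlap, and it was lower in females by 3.27 on the log2 scale (SE 0.46, edgeR adjusted p = 0.00163). On WDA females had at most 0.311 CPM and males at least 0.304 CPM (-2.57, SE 0.70, edgeR adjusted p = 0.0797), and *Scara5* passed without WDA WT female mouse 7 (-3.14, edgeR adjusted p = 0.0298). The average was -2.90 (SE 0.43, edgeR adjusted p = 0.000148). *Tfrc* (-0.33, SE 0.17, edgeR adjusted p = 0.239) and *Trf* (0.11, SE 0.08) did not pass.

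By stage, 1 of the 10 genes was called on WDA (2.85% of all genes) and 3 in Res (3.38%). The test of a stage by sex interaction gave 0 calls among the 10 (0.118% of all genes), with 0 at an unadjusted p under 0.05 (7.07%) and 0 by DESeq2 (0.754%), so that no difference of the sex effect between the stages was detected at this number of mice. Of the hepcidin regulators, *Acvr2a* (0.30, SE 0.08), *Bmpr2* (0.20, SE 0.05) and *Smad1* (0.32, SE 0.09), which receive or carry the BMP signal, were higher in females, and *Hjv*, *Tfr2* and *Tmprss6* had differences within 0.04 of 0. Among other ligands, *Bmp5* (0.37, SE 0.08) was higher and *Bmp7* (-1.27, SE 0.20) lower in females. *Alas2*, the erythroid enzyme of heme synthesis, was 16.7 CPM in females and 93.4 CPM in males (-2.49, SE 0.20), and was the 1 of 5 tested erythroid markers that passed.

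**Figure D4:**
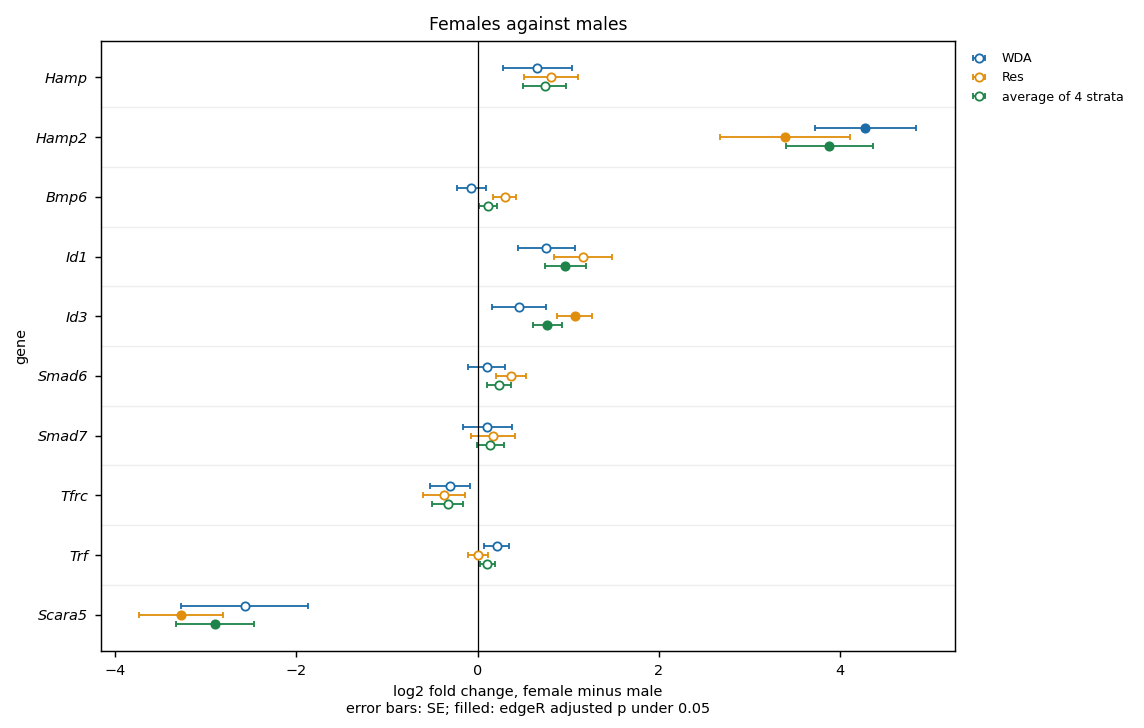
Log2 fold change, female minus male, of the 10 genes on WDA, in Res and averaged over stage and vector (points; bars, SE; filled, edgeR adjusted p under 0.05). *Hamp2* lay between 3.39 and 4.28 and *Scara5* between -3.27 and -2.57, while *Trf* and *Smad7* stayed within 0.21 of 0.

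Finally, pairs of the 10 genes were correlated over the 27 mice after the mean of each group had been subtracted, so that differences between stages, sexes and vectors do not enter. Of 45 pairs, 4 had a Benjamini-Hochberg adjusted p under 0.05 in a two-sided permutation test within groups (100000 resamples). The share of all other pairs of genes that would pass was not computed. *Id1* and *Id3* had the highest correlation (Pearson's r = 0.80, permutation p = 0.000190, adjusted permutation p = 0.00855; Spearman's rho = 0.79, permutation p = 0.000230, adjusted permutation p = 0.0103). *Id1* and *Smad7* followed (r = 0.73, permutation p = 0.00100, adjusted permutation p = 0.0225; rho = 0.70, permutation p = 0.00137, adjusted permutation p = 0.0308). *Hamp* and *Id3* had r = 0.62 (permutation p = 0.00285, adjusted permutation p = 0.0427) and rho = 0.63 (permutation p = 0.00406, adjusted permutation p = 0.0609), and *Id3* and *Smad7* had r = 0.58 (permutation p = 0.00421, adjusted permutation p = 0.0474) and rho = 0.54 (permutation p = 0.0125, adjusted permutation p = 0.112).

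Without the 2 libraries farthest from the median of the first gene, r was 0.79, 0.62, 0.58 and 0.50 in these 4 pairs. Within the 15 WDA libraries it was 0.85, 0.49, 0.69 and 0.66, and within the 12 Res libraries 0.78, 0.88, 0.50 and 0.55. Between the sexes, *Id1* and *Smad7* (0.28 in females, 0.92 in males) and *Id3* and *Smad7* (0.33 in females, 0.89 in males) differed more than *Id1* and *Id3* (0.79 and 0.91) and *Hamp* and *Id3* (0.66 and 0.59), and these differences were not tested. Without WDA mice 7 and 17, whose cholangiocyte markers were highest, r was 0.79, 0.71, 0.61 and 0.55. Without all 5 livers with high cholangiocyte markers, it was 0.81, 0.40, 0.58 and 0.48 over 22 mice, so that the value of *Id1* and *Smad7* rests in part on these 5. *Bmp6* had r = -0.15 with *Hamp* and -0.06 with *Id1*. *Hamp* and *Tfrc*, hormone and uptake receptor, had r = -0.37 (permutation p = 0.205, adjusted permutation p = 0.614).

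**Figure D5:**
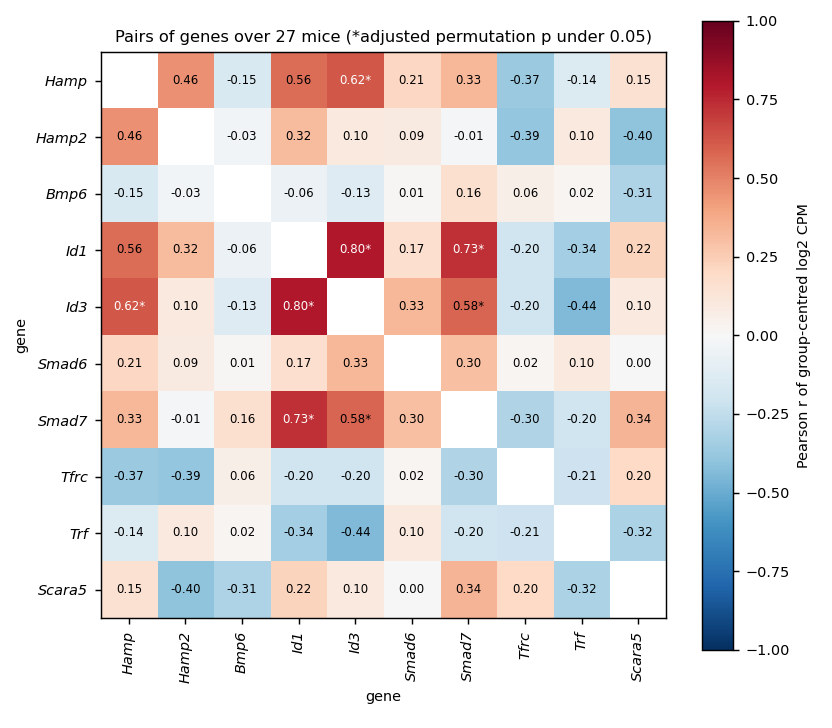
Pearson's r of group-centred log2 CPM for the 45 pairs of the 10 genes over 27 mice (color scale from -1 to 1; asterisk, adjusted permutation p under 0.05). The marked pairs are *Id1* with *Id3* (0.80), *Id1* with *Smad7* (0.73), *Hamp* with *Id3* (0.62) and *Id3* with *Smad7* (0.58), and *Bmp6* and *Trf* have no marked pair.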

How the data were processed

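Livers of 27 mice were sequenced on the BGISEQ platform. Per the labels and the study's methods, HISAT placed the filtered reads on GRCm38.p6 and Bowtie2 placed them on reference genes, and the tool that made the gene values is not given in the sources used here. The authors deposited expected counts (estimated reads per gene, not normalized) and FPKM values (scaled to length and library size) in 4 tables, by sex and experiment. Where a table did not list a gene, 0 was entered. Of 17655 gene identifiers, 17533 matched RefSeq. Groups came from the labels, and the replicates were separate mice, with no identical libraries among 27 pairs within groups. Mouse numbers repeat between the experiments and pair no mice.

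Counts were rounded, filtered with filterByExpr (minimum count 10), scaled with TMM and tested with edgeR 4.0.16 (glmQLFit, glmQLFTest) in R 4.3.3, with Benjamini-Hochberg adjustment at 0.05 over all genes tested. Each comparison used its own groups. Averages and interactions came from 1 fit of the 24 WT and KO libraries with a mean per group, signed female minus male and Res minus WDA. The SE was the fold change divided by the square root of F. CPM were TMM scaled, and correlations used log2 CPM with a prior count of 2. DESeq2 1.42.0, RLE and upper quartile scaling, no filter, at least 10 counts in every library, a spread shared by 9 groups, leaving out each mouse and, added after seeing the data, unscaled library totals and leaving out WDA mice 7 and 17, or all 5 livers with cholangiocyte markers above 5 times the median, were alternatives. Promoters and transcripts were compared in Python 3.11.15 with Biopython 1.88. The test procedures were tested on simulated data. The 10 genes and the lists were chosen with earlier results of these data known. Values of the 10 genes are shown, where tested, by stage, by KO against WT and by sex. For HepKO, the interactions and KO against WT in Res of both sexes, values are printed for some of the 10 only. From the 5 pathway lists, up to 6 called genes by size of change were reported, with *Hjv*, *Tfr2*, *Tmprss6*, *Slc40a1*, *Fth1* and *Ftl1*. Other called members of these lists, the female-biased transcripts and *Alas2* were chosen after their values were seen.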

Additional observations from a re-analysis of the deposited data

Results flagged for a closer look

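None of the 10 genes differed in its effect between groups by an interaction term at an adjusted p under 0.05. In the inflammatory list, the change from WDA to Res differed between the sexes for *Saa2* (-3.14, SE 0.57, edgeR adjusted p = 0.0327) and *Orm2* (-1.94, SE 0.33, edgeR adjusted p = 0.0327), 2 acute phase proteins, as the change in females minus that in males. In WT males they rose by 3.40 and 2.19 from WDA to Res. Groups of 3 mice are too small for a test of single outlying samples.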

How the results depend on the processing

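No direction reversed among the 46 differences of the 10 genes that had an unadjusted p under 0.05. Of their 330 values under other settings, 308 kept their side of the threshold, 16 passed and 6 lost it, and of 552 values with 1 mouse left out 526 kept it, 13 passed and 13 lost it. The number of the 10 genes called moved by over 1.5 times in the cases that follow. For Res against WDA it was 1 in WT females with the shared spread, 0 (at least 10 counts in every library, which removed *Scara5*) and 2 (DESeq2) in WT males, 2 in KO females with the shared spread and with unscaled totals, and 1 in KO males without a filter, with DESeq2 and with the shared spread. DESeq2 called 1 gene for KO against WT in WDA males and in Res females and for HepKO against KO, and 2 for females against males on WDA, as did the shared spread. With 1 mouse left out, the number ran from 1 to 3 in KO females (Res against WDA), from 0 to 1 in KO males and for HepKO against WT, from 0 to 2 for KO against WT in Res females, and from 1 to 2 for females against males on WDA. Without the 5 livers with high cholangiocyte markers it was 5 in the average of Res against WDA (3 with all). Smaller moves were found in KO females (Res against WDA, 4), with 5 by DESeq2 and 3 with at least 10 counts in every library, in females against males in Res (3), with 4 by DESeq2 and the shared spread, 2 with at least 10 counts and 2 to 4 with 1 mouse left out, in the average by sex (4), with 5 by DESeq2 and without WDA mice 7 and 17, 6 without the 5 livers, 3 with at least 10 counts and 4 to 5 with 1 mouse left out, and in the average by stage (3), with 2 with at least 10 counts and 3 to 4 with 1 mouse left out. With mouse number as a replicate block in KO females, which share numbers 2 and 3 but not mice, 3 of the 10 and 1707 of all genes were called (2550 without). *Bmp6* (adjusted p = 0.154) and *Tfrc* (0.152) were lost there, *Id3* passed (0.0376), and *Hamp* was 1.43 and *Scara5* 3.41. Of the 45 pairs, 11 passed without centring and 2 without HepKO. By group medians, *Bmp6* ranked 8 and *Smad7* 9 in level. Unscaled totals moved the median of all genes by -0.29 to 0.21. The number of all genes called by edgeR and DESeq2 was 0 and 404 (Res against WDA, WT females), 0 and 79 (KO males), 0 and 636 (KO against WT, Res females), 2 and 119 (KO against WT, average) and 367 and 716 (females against males, WDA), and in WT males (Res against WDA) it was 1361, or 308 with the shared spread and 814 with unscaled totals. Other such counts by edgeR and DESeq2 were 0 and 8 (KO against WT, WDA females), 0 and 17 (WDA males), 0 and 7 (Res males), 0 and 6 (Res, both sexes), 0 and 230 (HepKO against WT), 2 and 38 (HepKO against KO), 445 and 855 (females against males, Res), 16 and 102 (stage by sex) and 0 and 183 (KO by sex). With the shared spread, 840 genes were called in WT females, 1558 in KO females and 102 in KO males (Res against WDA), 670 for KO against WT in Res females and 26 in Res of both sexes, 49 for HepKO against WT, 0 for HepKO against KO, and 646 (WDA) and 899 (Res) for females against males. With 1 mouse left out, WT males (Res against WDA) had 106 to 1685 genes called and Res females (KO against WT) 0 to 852. Without the 5 livers, 8 genes were called for KO against WT (average), 2639 for females against males (average, 1526 with all) and 187 for stage by sex. The cause was not tested. With 3 mice per group, the SE of single differences limits what could be detected.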

Other observations

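Over the 27 mice, after subtracting group means, the genes whose log2 CPM was most like that of *Hamp* among 9763 genes were *Hnrnpa0* (r = 0.82), *Fance* (0.79), *Cdk2ap1* (0.79), *Jun* (0.76) and *Tspan4* (0.74), with *Id3* ranking 39 and *Id1* 112. Those most like *Id1* were *Alkbh1* (0.84), *Cdkn2c* (0.83), *Tagln* (0.82), *Sik1* (0.80) and *Skil* (0.80), with *Id3* ranking 6 and *Smad7* 23. Those most like *Tfrc* were *Ythdc2* (0.86), *Ankrd44* (0.83), *Ripk2* (0.78), *Gxylt1* (0.78) and *Akap11* (0.77). These values are descriptions with no test, and the libraries share their normalization.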
